A study of Mus musculus with 4 samples.

Results

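The heart transcripts of ion channel subunits were followed in mice with and without cancer and with and without treadmill exercise. The genes were all rows whose symbols name a sodium, calcium, potassium or HCN channel subunit (symbols starting with Scn, Cacna1, Cacna2d, Cacnb, Cacng, Kcn or Hcn followed by the subunit's own letters and number). This gave 135 of the 23238 gene symbols listed, and the 69 whose mean over the 4 libraries reached 4 normalized reads are described, out of 13725 symbols at or above that mean. The rule used the symbol and the mean level. A low gene can reach that mean through 1 library, as Kcnip1 did (16, 4, 0 and 0 reads). Such genes enter the counts of calls below. The lowest mean among the 69 was 4.85 (Cacng1) and the highest among those set aside was 3.96 (Kcnk1). Of the 66 set aside, 29 had no read in any library and 37 had at least 1 read. The name voltage-gated covers the set only in part, because inward rectifiers (Kcnj), K2P leak channels (Kcnk), calcium- and sodium-activated channels (Kcnn, Kcnma, Kcnmb, Kcnt) and auxiliary subunits were taken in by their symbols.

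All mice were males of the CDF1 strain, and the labels give their age as post natal date 28. The study's methods give about this age for the mice when bought, and the tissues were taken later, at the end of the experiment. The exact age of the mice at that point is not given in the sources used here. The normal control group, E(-)T(-), had neither treadmill training nor tumor cells, and the normal exercise group, E(+)T(-), had high-intensity aerobic treadmill exercise alone. The cancer control group, E(-)T(+), received CT26 cells, a mouse colorectal cancer line, through the tail vein, and the cancer exercise group, E(+)T(+), received the cells and the exercise. Per group 1 heart library was made, with a kit that reads the 3′ end of each transcript, so that read counts do not grow with transcript length. Whether the 3′ ends of different genes are captured and counted equally well was not checked. Levels of different genes are therefore compared only roughly. The sources used here do not say whether a heart library is 1 mouse or a pool, nor which chambers it holds. For the calf muscle the methods name a representative mouse of each group, and for the heart they state only a like analysis. With 1 library per group, the differences below are between libraries, with no replicate check and no test of a condition.

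The heartbeat depends on these proteins acting in sequence. Sodium channels open first and raise the membrane potential, L-type calcium channels hold the plateau and admit the calcium that triggers contraction, and several kinds of potassium channel bring the membrane back to rest. Pore-forming alpha subunits carry the current, auxiliary subunits set how many channels reach the surface and how fast they open and close, inward rectifier and leak channels hold the resting potential, and HCN channels carry the pacemaker current.

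Values are normalized read counts, obtained from the deposited log2 values after a quantile adjustment by the authors. They are given in the order E(-)T(-), E(+)T(-), E(-)T(+) and E(+)T(+) wherever 4 values follow a gene. A log2 fold change is the difference of 2 deposited values, each the log2 of the normalized count plus 1, which understates changes of low genes. A gene was called higher or lower when the libraries differed at least 2-fold and at least 1 of them reached 4 normalized reads. Each 95% interval is a Clopper-Pearson interval of the ratio of whole reads and covers counting error only. It treats each read as an independent draw. Reads are PCR copies and not independent molecules, so the interval may be too narrow even for counting error.

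The libraries held 6595402 to 11545982 reads, and the 135 genes took 0.204%, 0.217%, 0.155% and 0.124% of them. The cancer exercise library stood apart, with 37.3% of its reads from globin genes against 7.86% to 8.76% in the others, so its comparisons depend on the scaling. With reads scaled to library size in place of the authors' adjustment, the median over all genes moved to -0.59 in cancer exercise vs. cancer control, to -0.73 in cancer exercise vs. normal exercise and to -0.17 in cancer control vs. normal control. Ratios of genes within 1 library, given further on, do not depend on the scaling. The 10 cardiomyocyte markers (among them Myh6, Tnnt2 and Myl2) summed to 480061, 481305, 509717 and 529949, a high level that fits the heart label. None of them was called in any comparison. In bulk tissue, fewer cells of a type and less RNA per cell cannot be told apart.

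Promoters of 3 subunit genes that the comparisons turn on are shown, each 250 bases before to 50 bases after a RefSeq transcript start on GRCm38.p6, the build that mm10 denotes. Kcnip2 and Kcnj2 were lowest in the cancer control library, and Kcne4 was higher in both tumor libraries than in both tumor-free ones. Capitals mark the CCAAT box (CCAAT), the GC box (GGGCGG) and the E-box (CACGTG), searched on both strands, so that ATTGG is a CCAAT box read on the other strand.
Kcnip2, chr19:45816014-45816313, minus strand: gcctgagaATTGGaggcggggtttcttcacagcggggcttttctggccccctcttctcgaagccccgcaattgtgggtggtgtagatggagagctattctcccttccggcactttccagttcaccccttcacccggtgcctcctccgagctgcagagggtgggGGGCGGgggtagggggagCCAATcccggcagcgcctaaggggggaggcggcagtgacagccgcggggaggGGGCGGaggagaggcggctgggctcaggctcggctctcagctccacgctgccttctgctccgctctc
Kcnj2, chr11:111065914-111066213, plus strand: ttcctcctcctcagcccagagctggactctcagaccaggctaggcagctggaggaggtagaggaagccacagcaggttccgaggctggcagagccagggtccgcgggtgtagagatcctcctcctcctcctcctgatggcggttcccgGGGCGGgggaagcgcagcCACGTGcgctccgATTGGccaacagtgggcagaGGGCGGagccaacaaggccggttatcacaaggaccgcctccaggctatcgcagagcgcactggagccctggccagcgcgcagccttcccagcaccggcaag
Kcne4, chr1:78816661-78816960, plus strand: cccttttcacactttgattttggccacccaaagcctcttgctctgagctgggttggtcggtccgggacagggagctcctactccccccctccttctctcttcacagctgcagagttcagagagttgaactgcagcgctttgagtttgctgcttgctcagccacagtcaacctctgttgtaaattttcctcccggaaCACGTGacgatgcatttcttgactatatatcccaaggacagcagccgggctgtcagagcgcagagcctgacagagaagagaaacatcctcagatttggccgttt
Kcnip2 held 2 CCAAT boxes and 2 GC boxes, Kcnj2 held 1 CCAAT box, 2 GC boxes and 1 E-box, and Kcne4 held 1 E-box and neither of the others. The GC box stood in 51.4% of the 74 windows of 49 subunit genes and in 35.7% of all 32851 windows, the CCAAT box in 31.1% and 37.4%, and the E-box in 8.11% and 7.15%. The other 4 motifs searched, none of them in the windows printed, were the TATA box (TATAAA, 4.05% of the subunit windows and 13.6% of all), the AP-1 site (TGANTCA, 4.05% and 7.81%), the GATA motif (AGATAA, 4.05% and 11.2%) and a glucocorticoid response element core (AGAACA, 16.2% and 19%). A match describes these letters only, and some genes have several overlapping windows.

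The most abundant transcripts came from a leak channel and an auxiliary subunit. Kcnk3, an acid-sensitive K2P channel that carries a background potassium current, had 3235, 3810, 3389 and 4284 normalized reads. Kcnip2, the auxiliary subunit of the channels of the fast transient outward current, had 3928, 4344, 1337 and 2756. Its cancer control value was the lowest of the 4 by a wide margin, while Kcnk3 stayed within 0.34 log2 units in each comparison. Other abundant ones were Cacna2d1 (mean 1129), Kcnj11 (641), Kcng2 (529.8), Scn7a (409), Kcnj8 (407) and Cacna1c (342). In all, 22 of the 69 had a mean of at least 100 and 48 had a mean of at least 16. Genes of known cardiac currents among those set aside were Hcn4 (0, 3, 0 and 0 reads), Kcnd3 (0, 0, 2 and 0 reads), Kcne2 (0, 0, 0 and 2 reads), Kcnn2, Kcnc1 and Kcnk1, whose levels were too low for a comparison at this depth.

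**Figure D1:**
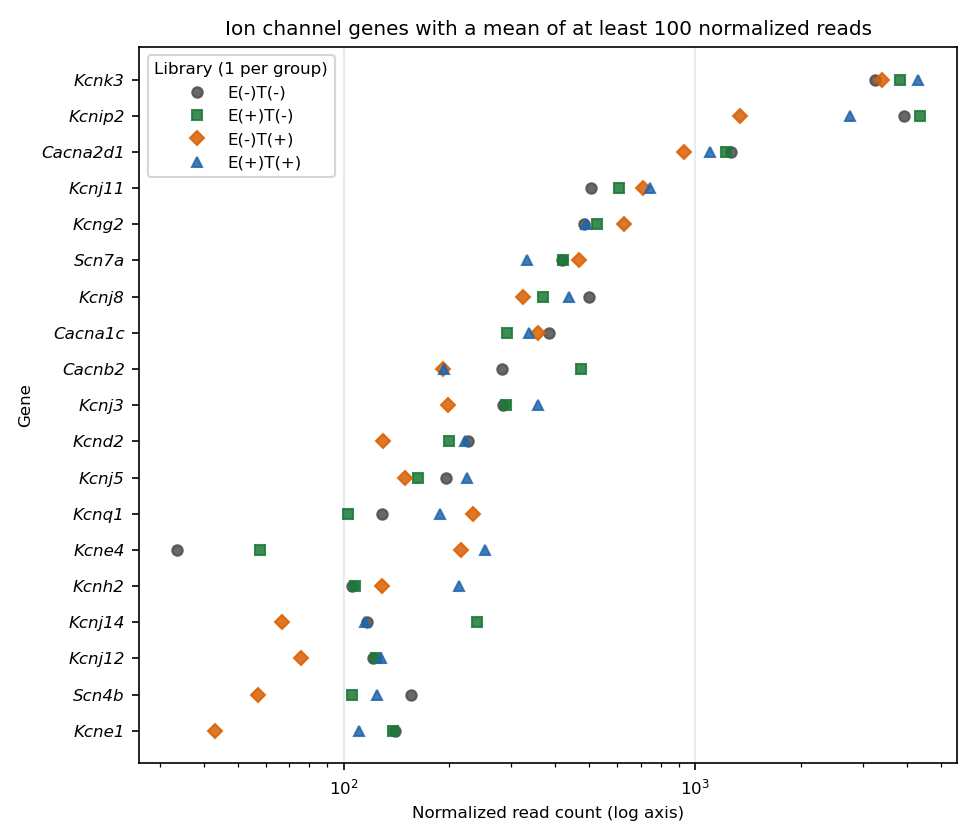
Normalized read counts (log axis) of 19 ion channel genes whose mean reached 100, 1 symbol per library and 1 library per group, so there are no error bars. Kcnk3 and Kcnip2 lie above the rest, and the E(-)T(+) symbol of Kcnip2, Kcnj14, Kcnj12, Scn4b and Kcne1 is the lowest of the 4, whereas it is the highest for Kcnq1.

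The tumor library without exercise held less of many subunits than its control. In cancer control vs. normal control, the comparison of tumor with no tumor in mice without exercise, 19 of 69 subunit genes (27.5%) were called lower, against 12.2% of all 13635 genes tested. Another 12 (17.4%) were called higher, against 13% of all genes. Counting only genes whose interval excluded 0, 18 were lower and 9 higher, against 11% and 11.5% of all genes. The median over the 69 was -0.38, beside -0.02 over all genes, and 43 of the 69 lay below 0. Of the 48 genes whose mean reached 16, 24 had their lowest value in the cancer control library, against 13 in the normal control library, 6 in the normal exercise library and 5 in the cancer exercise library. Of all 11633 genes of that level, 30.4% had their lowest value in the cancer control library, against 50% of the subunit genes.

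In the tumor-bearing pair the lean was towards higher values in the exercised library. In cancer exercise vs. cancer control, 13 of 65 genes were called higher (20%, against 7.78% of all 13569 genes) and 5 lower (7.69%, against 8.56%). With the interval excluding 0 these counts were 11 and 3, against 6.51% and 7.14% of all genes. The median was 0.24, beside -0.01 over all genes. With reads scaled to library size it became -0.35 beside -0.59, and 4 were called higher and 14 lower. The shares of all genes called with that scaling are not given here.

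Exercise without tumor gave the fewest calls across all genes, and 18 of the 67 subunit genes were among them. In normal exercise vs. normal control, 12 of 67 were called higher (17.9%, against 4.88% of 13415 genes) and 6 lower (8.96%, against 5.29%), and 9 and 5 had intervals that excluded 0, against 3.47% and 3.6% of all genes. The median was 0.03, beside 0.00 over all genes. Most of these calls were of low genes: with a mean of at least 16 required, 7 were higher and 1 lower. The shares of all genes called at that level are not given here.

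Tumor in exercised mice gave a different balance. In cancer exercise vs. normal exercise, 6 of 66 genes were called higher (9.09%, against 10.1% of 13600 genes) and 13 lower (19.7%, against 10.2%), with 4 and 11 where the interval excluded 0, against 8.87% and 8.88% of all genes. The median was 0.03, beside -0.02 over all genes. With reads scaled to library size it was -0.74 beside -0.73, and 3 were higher and 27 lower. The shares of all genes called with that scaling are not given here. Comparisons that have a library in common are not independent. In all, 43 of the 69 (62.3%) were called in at least 1 comparison and 26 in none, against 39.8% of all 13725 genes whose mean reached 4.

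**Figure D2:**
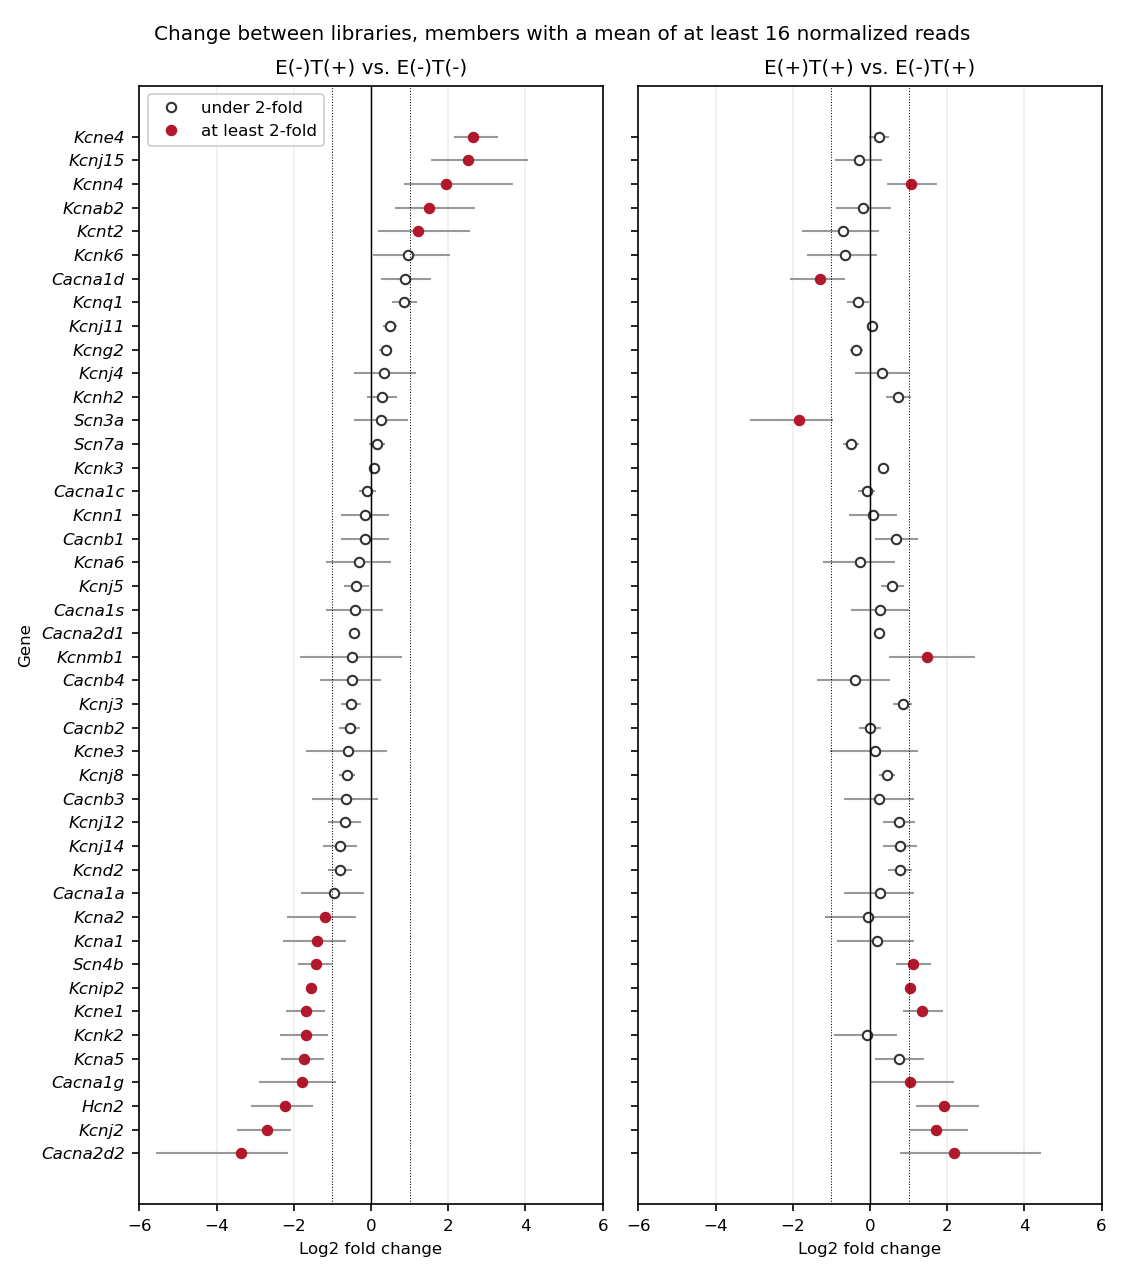
Log2 fold change of 44 subunit genes whose mean reached 16 normalized reads, for E(-)T(+) vs. E(-)T(-) on the left and E(+)T(+) vs. E(-)T(+) on the right, sorted by the left panel. Lines are 95% counting intervals, filled points are at least 2-fold, dotted lines mark 2-fold, and both panels use the E(-)T(+) library, so a low or high value there appears on opposite sides.

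Among sodium channel alpha subunits, Scn7a, a relative that senses sodium levels, had 418, 421, 466 and 333 normalized reads and was called in no comparison. Scn3a, better known from the nervous system, had 35.4, 18.9, 42.5 and 11.1 and was called lower in cancer exercise vs. cancer control, at -1.85 (interval -3.10 to -0.95). Scn10a, a sensory neuron channel (chr9:119608456-119719322, mm10, minus strand), had 17, 4, 4 and 0 reads, highest in the normal control library, and was called lower in normal exercise vs. normal control at -2.13 (interval -4.46 to -0.81) and in cancer control vs. normal control at -2.17 (-4.50 to -0.85).

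The beta subunits assist the sodium channel pores and anchor them in the membrane. Scn4b had 156, 106, 57.2 and 125 normalized reads, lowest in the cancer control library. Its log2 fold change was -1.43 in cancer control vs. normal control (interval -1.89 to -1.01) and 1.11 in cancer exercise vs. cancer control (0.67 to 1.58, and 0.53 with reads scaled to library size). Scn2b, whose gene is the neighbour of Scn4b (chr9:45117782-45130070 and chr9:45138395-45154152, both on the plus strand), had only 5, 21, 5 and 13 reads and was called higher in both exercised libraries than in the matching library without exercise. In cancer exercise vs. cancer control its log2 fold change was 1.52, or 0.96 with reads scaled to library size, under 2-fold. Scn3b had 17, 2, 9 and 3 reads, the highest in the normal control library.

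Of the calcium channel pores, Cacna1c, the ventricular L-type channel, had 383, 292, 358 and 336 normalized reads and was called nowhere. Cacna1d, the L-type channel of atrial and pacemaker cells, had 35.6, 18.0, 66.4 and 26.3. Its cancer control value was the highest, and the call lower in cancer exercise vs. cancer control was -1.30 (interval -2.06 to -0.65), with exons that overlap those of Chdh on the opposite strand. Cacna1s, the skeletal muscle L-type pore, stayed between 29.0 and 38.9. The T-type channels open at lower voltages and act in conduction and pacemaking. Cacna1g had 41.1, 42.6, 11.3 and 24.1, with a log2 fold change of -1.78 in cancer control vs. normal control (interval -2.89 to -0.90) and of 1.03 in cancer exercise vs. cancer control (0.02 to 2.18, and 0.45 with reads scaled to library size). Cacna1h, at 2, 11, 10 and 4 reads, was called in 3 comparisons, each with an interval that included 0. Cacna1a, the neuronal P/Q-type pore, had 40.1, 51.7, 20.2 and 24.1 and was called lower in cancer exercise vs. normal exercise at -1.07.

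Auxiliary calcium channel subunits bring the pore to the surface and set its gating. The main cardiac beta subunit, Cacnb2, had 282, 473, 192 and 193 normalized reads. Its value was highest in the normal exercise library and nearly equal in the 2 tumor libraries, and it was called lower in cancer exercise vs. normal exercise at -1.29 (interval -1.55 to -1.05). Cacna2d1, the main cardiac alpha2delta subunit, had 1262, 1224, 930 and 1101 and was called nowhere. Cacna2d2, its less abundant relative, had 43.3, 45.4, 3.33 and 18.7. The cancer control library, with 4 reads, was far below the rest, at -3.36 against the normal control library (interval -5.57 to -2.15). Cacna2d2 was called in 3 comparisons, also higher in cancer exercise vs. cancer control at 2.18 (0.78 to 4.43) and lower in cancer exercise vs. normal exercise at -1.24 (-2.17 to -0.46). Cacnb1 (44.0 to 71.0), Cacnb3 (20.2 to 35.3) and Cacnb4 (18.0 to 35.4) were called nowhere, and Cacna2d3 and Cacng1 had at most 8 reads in any library, where the calls in which they appear had intervals that included 0.

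The transient outward current, the early phase of repolarization that is large in mouse ventricle, is carried by Kcnd pores with Kcnip2. Kcnd2, the pore, had 226, 199.9, 130 and 222 normalized reads, lowest in the cancer control library at -0.80 against the normal control library (interval -1.12 to -0.48), under the 2-fold limit. Kcnip2 had a log2 fold change of -1.55 in the same comparison (interval -1.64 to -1.47, from 3427 and 1516 reads). It was higher by 1.04 in cancer exercise vs. cancer control (0.95 to 1.14), or by 0.46 with reads scaled to library size, and its value in cancer exercise vs. normal exercise was -0.66. Kcnip2 had 17.4, 21.7, 10.3 and 12.4 reads for each read of Kcnd2, so both tumor libraries were below both tumor-free ones. Kcnip1, a relative of Kcnip2 known from neurons, had 16, 4, 0 and 0 reads and was called lower in normal exercise vs. normal control and in cancer control vs. normal control, where the log2 fold change against a floor of 3 reads was -2.79. Kcnip3 (11.7 to 20.4) was called nowhere. Kcna4, the pore of the slow transient outward current, had 11, 5, 4 and 2 reads and was called lower in the same 2 comparisons as Kcnip1, with the interval including 0 in normal exercise vs. normal control.

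Kcna5 is a pore of the delayed rectifiers of mouse heart. It had 113, 177, 33.3 and 57.0 normalized reads, and both tumor libraries lay below both tumor-free ones. Its log2 fold change was -1.74 in cancer control vs. normal control (interval -2.34 to -1.21) and -1.62 in cancer exercise vs. normal exercise (-2.10 to -1.19). Kcna1, a shaker relative known from nerve, had 48.2, 107, 17.4 and 19.8, again lower in both tumor libraries, at -1.41 (interval -2.29 to -0.65) and -2.38 (-3.24 to -1.72), and higher in normal exercise vs. normal control at 1.14. Kcna6 had 29.8, 48.1, 23.7 and 19.8 and was called lower in cancer exercise vs. normal exercise at -1.24. These 3 genes form a cluster on chromosome 6, all on the minus strand (Kcna5 chr6:126532551-126535412, Kcna1 chr6:126640397-126646384, Kcna6 chr6:126708329-126740674, mm10). Kcna2 had 37.5, 11.7, 15.8 and 15.4, highest in the normal control library, and was called lower in the normal exercise library and in the cancer control library than there, at -1.60 and -1.20. Kcna7 had 27.3, 14.4, 3.36 and 18.6, called lower in cancer control vs. normal control at -2.70 (interval -4.95 to -1.42) and higher in cancer exercise vs. cancer control at 2.17 (0.78 to 4.43), from 4 reads in the cancer control library.

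The silent subunit Kcng2, which forms channels only together with other pores, had 481, 524, 625 and 489 normalized reads and was called in no comparison. A second silent subunit, Kcnv2, had 15, 10, 5 and 10 reads, called lower in cancer control vs. normal control at -1.77 (interval -3.78 to -0.43). Kcns3, also silent on its own, had 1, 0, 14 and 6 reads, called higher in both tumor libraries than in the matching tumor-free one, with a log2 ratio of 1.27 against a floor of 3 reads in cancer exercise vs. normal exercise and an interval of 0.71 to 8.83 around 2.58 in cancer control vs. normal control. Kcnh1 had 1, 7, 9 and 15 reads and 3 calls higher whose intervals included 0. Kcnc2 was near the limit of detection, at 5, 8, 4 and 4 reads.

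The slow delayed rectifier is formed by Kcnq1 with Kcne1, and the rapid one by Kcnh2. Kcnq1 had 129, 103, 234 and 188 normalized reads, higher in both tumor libraries by 0.86 log2 units in each pair, under the 2-fold limit, and shares exons with the antisense RNA Kcnq1ot1 on the opposite strand. With reads scaled to library size the second of these was 0.15. Kcnh2 had 106, 108, 129 and 213 and was called nowhere, with 0.98 in cancer exercise vs. normal exercise and 0.26 with reads scaled to library size. Kcne1 had 139.8, 139, 43.0 and 110.4, lowest in the cancer control library, at -1.68 against the normal control library (interval -2.20 to -1.20). It was higher in cancer exercise vs. cancer control by 1.34 (0.85 to 1.88), or by 0.75 with reads scaled to library size.

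Kcne4, whose protein inhibits channels such as Kcnq1, went the other way. It had 33.5, 57.7, 216 and 252 normalized reads (29, 64, 244 and 231 reads), with both tumor libraries above both tumor-free ones. Its log2 fold change was 2.65 in cancer control vs. normal control (interval 2.14 to 3.30) and 2.11 in cancer exercise vs. normal exercise (1.72 to 2.55), still 1.39 with reads scaled to library size. Kcne4 took 19.2%, 29.5%, 83.3% and 69.6% of the reads of Kcne4 and Kcne1 together, with the intervals of the tumor libraries (78.5% to 87.4% and 64.3% to 74.5%) above those of the tumor-free ones (13.3% to 26.4% and 23.5% to 36%). Kcne3 (14.0 to 21.7 normalized reads) was called nowhere. Of the Kcnab subunits, which bind shaker-type pores inside the cell, Kcnab2 had 12.8, 20.7, 38.1 and 33.9 and was called higher in cancer control vs. normal control at 1.50 (interval 0.61 to 2.69), and Kcnab1 had 4, 13, 12 and 1 reads. The 2 calls higher of Kcnab1, both against the normal control library, had intervals that included 0 (-0.34 to 3.43 and -0.52 to 3.30).

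**Figure D3:**
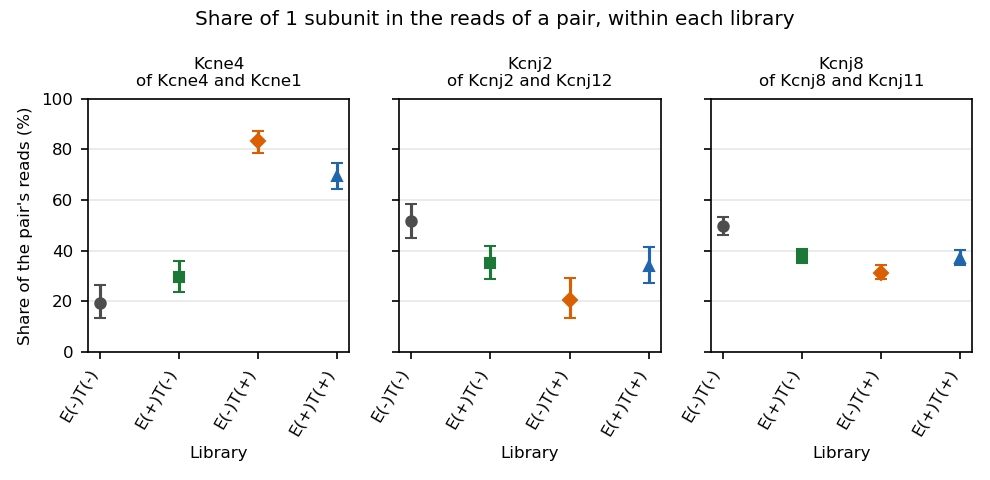
Share of 1 subunit in the summed reads of a related pair (percent, 0 to 100) in each library, with 95% counting intervals as bars. Kcne4 takes 83.3% and 69.6% in the tumor libraries and 19.2% and 29.5% in the tumor-free ones, while the shares of Kcnj2 and Kcnj8 are lowest in E(-)T(+) and highest in E(-)T(-).

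Among the inward rectifiers, Kcnj2 and Kcnj12 carry the current that holds the resting potential of ventricular cells. Kcnj2 had 129, 66.9, 19.2 and 65.6 normalized reads (113, 74, 22 and 60 reads). The cancer control library was lowest, at -2.69 against the normal control library (interval -3.47 to -2.07), and the cancer exercise library was above it by 1.72 (1.03 to 2.53), or by 1.13 with reads scaled to library size. Kcnj12 had 121, 124, 75.7 and 128, lowest in the same library but called nowhere. The share of Kcnj2 in the reads of both was 51.6%, 35.1%, 20.4% and 33.9%, and the interval in the normal control library (44.8% to 58.4%) lay above those of the other 3 libraries. Kcnj14, of the same subfamily, had 117, 240, 66.8 and 115, highest in the normal exercise library, with 1.03 against the normal control library (interval 0.70 to 1.38) and -1.06 in cancer exercise vs. normal exercise (-1.40 to -0.73). Kcnj4, the remaining member of that subfamily described, stayed between 26.5 and 41.5.

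Kcnj3 and Kcnj5 form the acetylcholine-activated channel of atrium and sinus node. Kcnj3 had 284, 289, 198 and 357 normalized reads and Kcnj5 had 195, 163, 149.9 and 224. Both were lowest in the cancer control library and highest in the cancer exercise library, with no call, at 0.85 and 0.58 in cancer exercise vs. cancer control and 0.26 and -0.01 with reads scaled to library size. Of the 5 atrial markers, the 4 with a mean of at least 4 (Myl7, Myl4, Sln and Nppa) were all called higher in cancer exercise vs. cancer control, the 5 summed to 14776, 18664, 8867 and 28877, and Bmp10 had no read in the normal exercise library and the cancer control library. In normal exercise vs. normal control Myl7 (1.20) and Sln (1.35) were also called higher, while Myl4 (0.99) and Nppa (0.15) were not. Kcnj3 and Kcnj5 were at 0.03 and -0.26 there. The part of atrial tissue in the subunit values was not tested.

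The ATP-sensitive channel, which links potassium current to metabolism, has Kcnj11 or Kcnj8 as its pore. Kcnj11, the pore of the myocytes, had 504, 607, 709 and 741, and Kcnj8, the pore of vascular smooth muscle and pericytes, had 498, 368, 324 and 439. Kcnj8 made up 49.7%, 37.8%, 31.3% and 37.2% of the reads of both, with the interval in the normal control library (46.3% to 53.1%) above the others. Neither gene was called in any comparison. Kcnj15 had 7, 66, 59 and 39 reads, so the normal control library was below the other 3, at 2.71 for the normal exercise library and 2.52 for the cancer control library against it (intervals 1.77 to 4.26 and 1.56 to 4.07). Kcnj10, which takes up potassium in glia, had 2, 3, 12 and 4 reads and was called higher in cancer control vs. normal control at 1.80 (interval 0.04 to 5.41).

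Among the K2P channels, Kcnk2, which responds to stretch and lipids, had 92.6, 83.3, 28.1 and 26.4 normalized reads. Both tumor libraries lay below both tumor-free ones, at -1.69 without exercise (interval -2.36 to -1.11) and -1.62 with it, where the interval also excluded 0. The abundant Kcnk3 was not called in either, and Kcnk2 made up 2.79%, 2.14%, 0.826% and 0.609% of the reads of both genes. Kcnk5 had 10, 10, 3 and 3 reads, called lower in both tumor pairs, with an interval that included 0 in cancer exercise vs. normal exercise. Kcnk6 had 13, 41, 34 and 17 reads and was called higher in normal exercise vs. normal control at 1.25. Kcnk13 had 19, 2, 27 and 12 reads, so the single low library was the normal exercise library, and its calls lower in normal exercise vs. normal control (interval -6.74 to -1.54) and higher in cancer exercise vs. normal exercise (0.69 to 6.06) both rest on those 2 reads.

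The calcium- and sodium-activated channels were mostly low. Kcnn4, the intermediate-conductance channel of blood and vessel cells, had 7.12, 25.3, 29.9 and 63.1 normalized reads (6, 28, 34 and 58 reads) and was called higher in all 4 comparisons, from 1.05 (interval 0.45 to 1.74) in cancer exercise vs. cancer control to 1.93 (0.86 to 3.67) in cancer control vs. normal control. With reads scaled to library size, the 2 comparisons of the cancer exercise library gave 0.48 and 0.59, under 2-fold. Neutrophil markers moved in part with it: S100a8, S100a9, Retnlg and Csf3r summed to 121, 79.9, 2987 and 5730, with 3 of 4 called higher in each tumor comparison. In normal exercise vs. normal control, where Kcnn4 was called higher, none of them was called. Erythroid markers summed to 526656, 508529, 522624 and 3593425, highest in the library where Kcnn4 was highest. The part of either cell type in the Kcnn4 values was not tested. Kcnma1, the large-conductance channel, had 1, 23, 14 and 7 reads, and its beta subunit Kcnmb1 12, 35, 11 and 26 reads. Both were called higher in normal exercise vs. normal control, with intervals of 1.56 to 9.55 and 0.22 to 2.28, and Kcnmb1 also in cancer exercise vs. cancer control at 1.48 (0.48 to 2.72), or 0.90 with reads scaled to library size, under 2-fold. Both are known from smooth muscle. The 7 markers of smooth muscle and pericytes summed to 3981, 7486, 5733 and 5635. In normal exercise vs. normal control 4 of them (Acta2, Myh11, Tagln and Cnn1) were called higher and 3 were not called (Rgs5 at -0.41, Pdgfrb at -0.13 and Cspg4 at -0.09), and in cancer exercise vs. cancer control 0 were called higher and 1, Pdgfrb, lower. The part of smooth muscle in the 2 genes' values was not tested. Kcnmb1 (chr11:33963013-33973641, plus strand) lies within the span of Kcnip1 (chr11:33629339-33993152, minus strand), and the 2 genes share no exon. Kcnn1 (43.2 to 48.8) was called nowhere, Kcnn3 had 8, 21, 7 and 5 reads and was called lower in cancer exercise vs. normal exercise at -1.62, and Kcnt2 had 9, 16, 29 and 14, called higher in cancer control vs. normal control at 1.22.

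Of the HCN channels, Hcn2, the main isoform of ventricular muscle, had 76.6, 61.6, 15.7 and 62.3 normalized reads. The cancer control library was the only low one, at -2.22 against the normal control library (interval -3.11 to -1.51), and the cancer exercise library was above it by 1.92 (1.19 to 2.83), or by 1.34 with reads scaled to library size. The cancer exercise library and the normal exercise library differed by 0.02 (interval -0.51 to 0.55), or by -0.69 with reads scaled to library size, where the median of all genes was -0.73.

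Grouped by pattern, 9 genes were called lower in cancer control vs. normal control and higher in cancer exercise vs. cancer control: Kcnip2, Kcnj2, Hcn2, Kcne1, Scn4b, Cacna1g, Cacna2d2, Kcna7 and Kcnv2. They were 13% of the 69, against 3.91% of all 13725 genes. The cancer control library enters both comparisons, so a low value in it alone gives this pattern. With reads scaled to library size, Hcn2, Kcnj2, Kcna7 and Cacna2d2 were still called higher in the second. The reverse pattern, higher and then lower, was held by Kcnj10 and Kcnab1, 2.9% of the 69 against 3.8% of all genes. The 2 tumor comparisons share no library, and 5 genes were called lower in both (Kcnk2, Kcna5, Kcna1, Kcnk5 and Cacna2d2), 7.25% of the 69 against 3.98% of all genes. Another 4 (Kcne4, Kcnn4, Kcns3 and Kcnh1) were called higher in both, 5.8% against 5.06%. Across the 48 genes whose mean reached 16, the 2 tumor comparisons had the same sign in 31 and a Pearson r of 0.54, close to the 0.57 across all 11633 genes of that level, where 8086 had the same sign. The 2 exercise comparisons, which also share no library, gave r = 0.05 and the same sign in 29 of 48 subunit genes, beside 0.01 and 5899 of all. Genes are not independent replicates, and each effect rests on 2 libraries.

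**Figure D4:**
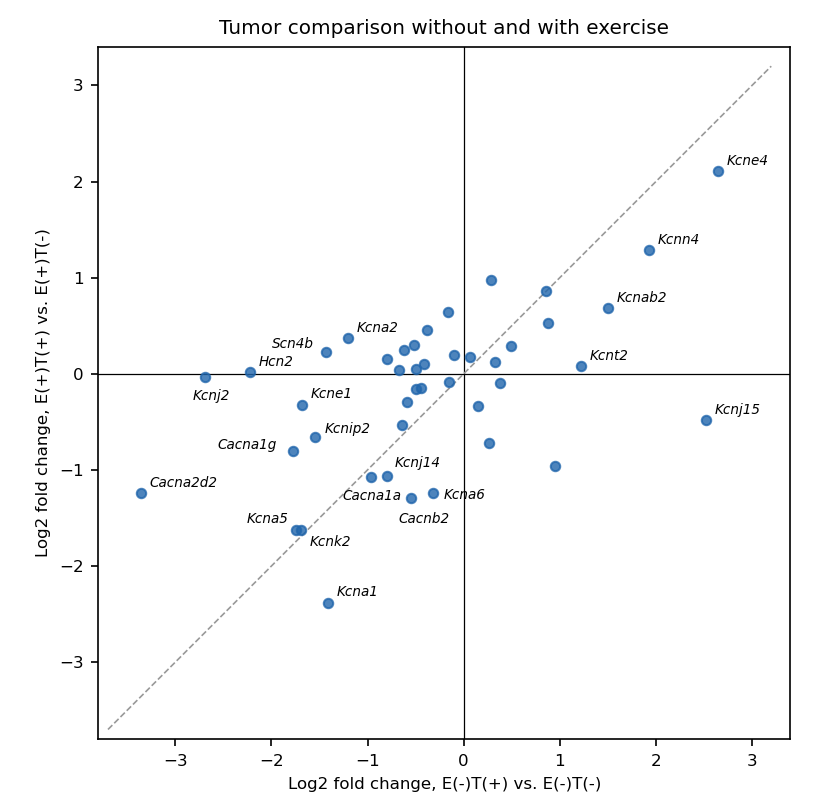
Log2 fold change of E(+)T(+) vs. E(+)T(-) against that of E(-)T(+) vs. E(-)T(-) for 44 subunit genes whose mean reached 16 normalized reads, 1 point per gene, with the dashed line marking equal values and names at genes of at least 2-fold in either. Kcne4 and Kcnn4 are high and Kcna1, Kcna5, Kcnk2 and Cacna2d2 low on both axes, whereas Kcnj2 and Hcn2 are low on the horizontal axis and near 0 on the vertical one.

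Read by list, the 43 genes of the main cardiac currents had 37 described, of which 5 were called higher and 10 lower in cancer control vs. normal control and 1 and 8 in cancer exercise vs. normal exercise. In normal exercise vs. normal control 6 were higher and 1 lower. In cancer exercise vs. cancer control 7 of the 35 compared were higher and 2 lower. Over all genes, 4.88% were called higher and 5.29% lower in normal exercise vs. normal control. The shares were 13% and 12.2% in cancer control vs. normal control, and 7.78% and 8.56% in cancer exercise vs. cancer control. In cancer exercise vs. normal exercise they were 10.1% and 10.2%. The medians of the list were 0.03 in normal exercise vs. normal control, -0.44 in cancer control vs. normal control, 0.24 in cancer exercise vs. cancer control and -0.03 in cancer exercise vs. normal exercise, beside 0.00, -0.02, -0.01 and -0.02 over all genes. Proteins that bind or modify these channels were looked at as a separate list of 36 genes, 32 with a mean of at least 4. Among them 0 were called in normal exercise vs. normal control, 2 higher and 6 lower in cancer control vs. normal control, 4 and 1 in cancer exercise vs. cancer control, and 2 and 3 in cancer exercise vs. normal exercise, with medians of -0.12, -0.25, 0.02 and 0.03 in that order. Rem1, a small GTPase that inhibits L-type channels through the beta subunit, had 186, 97.7, 50.1 and 12.2 normalized reads and was called lower in each of the 3 comparisons with a tumor library. Fgf11, a sodium channel binding factor, had 37.6, 32.7, 7.77 and 13.2, and Camk2b, a calmodulin kinase subunit, had 78.9, 76.1, 24.5 and 32.9. Both were called lower in both tumor comparisons. Gem, a relative of Rem1, had 19.7, 38.0, 63.7 and 48.1 and was called higher in cancer control vs. normal control.

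Transcription factors known to set channel expression in the heart formed a list of 22, of which 21 had a mean of at least 4. Their counts called higher and lower were 1 and 0 in normal exercise vs. normal control, 2 and 1 in cancer control vs. normal control, 2 and 3 in cancer exercise vs. cancer control and 2 and 2 in cancer exercise vs. normal exercise, with medians of -0.03, 0.06, 0.23 and -0.15. Over all genes the shares called higher and lower were 4.88% and 5.29%, 13% and 12.2%, 7.78% and 8.56%, and 10.1% and 10.2%, in that order. Irx3, which acts in the conduction system, had 636, 381, 236 and 586 normalized reads. It was called lower in cancer control vs. normal control and higher in cancer exercise vs. cancer control. Klf15, a factor that drives Kcnip2 in the mouse heart, had 117, 91.2, 265 and 96.3, highest in the cancer control library, in which Kcnip2 was lowest. A link between Klf15 and Kcnip2 in these libraries was not tested. Shox2, of the sinus node, had 49.3, 89.8, 37.9 and 11.1, and Hand2 had 406, 1040, 628 and 525.

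The other marker lists give the cell types against which the subunit values can be read, each as the sum in the 4 libraries, and their part in the subunit values was not tested. Schwann and neuron markers summed to 381, 353, 222 and 197, highest in the normal control library as were Scn10a, Scn3b, Kcnip1 and Kcna2. Fibroblast markers summed to 22577, 26203, 48021 and 30455, and macrophage markers to 1641, 1987, 2668 and 1801, both highest in the cancer control library. Endothelial markers summed to 6945, 5386, 6085 and 7438. In cancer control vs. normal control they moved apart. Kdr (-1.89) and Cdh5 (-1.26) were called lower, while Tie1 (-0.57), Pecam1 (0.55) and Egfl7 (0.78) were not called. Adipocyte markers summed to 2195, 524, 425 and 2500, with all 5 called in 3 of the comparisons and Plin1 without a read in the cancer control library. Lymphocyte markers (13.1 to 39.7) and skeletal muscle markers (18.8 to 35.4) were near the limit of detection, and erythroid markers summed to 526656, 508529, 522624 and 3593425.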

How the data were processed

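One heart library per group was sequenced with QuantSeq 3′ mRNA-Seq from TRIzol-extracted RNA. The authors aligned reads with Bowtie2 to mm10, counted them with Bedtools and quantile-normalized the counts with edgeR, and the deposited values are log2 of the normalized read count plus 1. The versions of these tools are not given in the sources used here. Whole reads were recovered by inverting the adjustment (dispersion 0.149, largest difference 0.000503 log2 units, and 100% of 25460 values of 5 to 99 reads within 0.1 of a whole read), with Python 3.11.15, numpy 2.4.6, scipy 1.17.1 and pandas 2.3.3, tested on simulated data. Totals were 6595402, 8477151, 9532876 and 11545982 reads.

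Genes whose mean reached 4 normalized reads were compared, and a call needed a 2-fold difference and 4 normalized reads in at least 1 library, after the limits the study used. No test was run because each group has 1 library. The subunit genes and the lists were chosen with earlier results of these data known, and the pairs whose shares are given were picked after their values were seen. Named genes were those called in any comparison, the 10 with the highest mean, those of the cardiac current list, and up to 4 each of the partner and transcription factor lists with the largest change at a mean of at least 16. Gene coordinates came from GENCODE vM21, in which all 69 genes were found, and promoter windows from RefSeq on GRCm38.p6. Counting is not stated to use strand, and 23 of the 69 genes have exons that overlap another gene's. Alternatives were 3 other scalings, a pseudocount of 4, reads thinned to the smallest library, a mean of at least 16 or no filter, and a call needing 4 normalized reads in both libraries. No sequence is printed for genes without a window. Results of some genes are not reported here, and these genes are counted in the totals but left out of the figures.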

Additional observations from a re-analysis of the deposited data

Results flagged for a closer look

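With 1 library per group, these differences between comparisons were not tested. In 3 subunit genes, calls in 2 comparisons of the same contrast went opposite ways. Kcnab1, at 4, 13, 12 and 1 reads in E(-)T(-), E(+)T(-), E(-)T(+) and E(+)T(+), had a log2 fold change of 1.18 for exercise without tumor and -2.41 with tumor, and of 1.04 for tumor without exercise and -2.55 with it. Its 2 calls higher had counting intervals that included 0 (-0.34 to 3.43 and -0.52 to 3.30). Kcnma1, at 1, 23, 14 and 7 reads, had 2.52 for tumor without exercise and -1.34 with it. Cacna1h, at 2, 11, 10 and 4 reads, had 1.53 and -1.02 in the same 2 comparisons, both with intervals that included 0 (-0.29 to 5.17 and -3.29 to 0.57). Each of the 3 had its lowest values in E(-)T(-) and E(+)T(+), with at most 7 reads there.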

How the results depend on the processing

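No paired analysis was possible because each group has 1 library, and for the same reason no replicate could be left out. Scaling mattered most in the comparisons of E(+)T(+). Where only 1 direction is named below, the count of the other is left out and is not to be read as none. With reads scaled to library size, E(+)T(+) vs. E(-)T(+) gave 4 higher, 14 lower and a median of -0.35, and E(+)T(+) vs. E(+)T(-) gave 3 higher, 27 lower and a median of -0.74. With a mean of at least 16 required, E(+)T(-) vs. E(-)T(-) gave 7 higher and 1 lower, E(-)T(+) vs. E(-)T(-) gave 6 and 11, E(+)T(+) vs. E(-)T(+) gave 2 lower, and E(+)T(+) vs. E(+)T(-) gave 2 and 8, since fewer genes were compared. With 4 normalized reads needed in both libraries, E(+)T(-) vs. E(-)T(-) gave 2 lower, E(-)T(+) vs. E(-)T(-) gave 7 higher and 12 lower, E(+)T(+) vs. E(-)T(+) gave 3 lower and E(+)T(+) vs. E(+)T(-) gave 3 higher. E(+)T(+) vs. E(-)T(+) gave 3 lower with a pseudocount of 4 and 8 lower with no filter, and E(+)T(-) vs. E(-)T(-) gave 10 lower with thinned reads. For the last 3 values the cause was not tested. The shares of all genes called with these alternatives are not given here. Of 267 log2 fold changes of single genes, 57 moved beyond their counting interval with library-size scaling, 10 when genes over 1% of a library were left out of the scaling, 2 with thinned reads, and 0 with the pseudocount or with median-of-ratios size factors, and none of the called ones changed sign. Genes under about 16 normalized reads had wide counting intervals, so their calls are the least certain.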
